A study of Homo sapiens with 12 samples.

Results

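The genes described here are 36 genes of glycolysis and of the hypoxia response, taken as the rows of the deposited count table that carry the listed symbols. They were kept apart as 21 genes of glucose uptake and glycolysis and 15 genes of the hypoxia-inducible factor (HIF) pathway. All 36 were among the 56634 symbols of the table. Bulk RNA sequencing was done on HEK293, an established human embryonic kidney line, with 3 biological replicates in each of 4 groups. TnfSnxB cells were exposed for 1 h to 1 µM Senexin B, which blocks both Mediator kinases (CDK8 and its paralogue CDK19), and then for 2 h to the inflammatory cytokine TNFα at 10 ng/mL. Tnf cells had 0.1% DMSO for 1 h and then the same dose of TNFα for 2 h. SnxB cells had 1 µM Senexin B without TNFα, and Ctrl cells had 0.1% DMSO without TNFα, for 3 h in all. All groups were grown in high-glucose medium, and the labels describe no low-oxygen treatment, so every level given here is from cells with glucose in excess and no stated hypoxia. The series was made to measure the effect of Mediator kinase inhibition with and without TNFα in this 1 cell line.

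Glycolysis breaks glucose down to pyruvate in the cytosol, and lactate dehydrogenase turns pyruvate into lactate. The HIF transcription factors pair an oxygen-regulated alpha subunit (HIF1A or EPAS1) with ARNT. EGLN prolyl hydroxylases mark the alpha subunits for destruction while oxygen is present, and stabilised HIF binds sites with the core letters ACGTG or GCGTG near genes for glucose transport, glycolysis, mitophagy, angiogenesis and collagen processing. HIF1A is regulated mainly as a protein, so its mRNA level does not report HIF activity. CDK8 is known as a coactivator of HIF1A target genes in hypoxic human cells.

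Libraries held 8705277 to 50943310 counts, with Tnf library 2 the deepest at 4.87 times the median of the rest. A count of 3, taken as the detection floor, was worth 0.0589 to 0.345 CPM (CPM are counts scaled to a common library size), which covers counting error only. TnfSnxB libraries 2 and 3 stood apart from TnfSnxB library 1. Across genes, a library's deviation from the mean of all 12 libraries was set against transcript GC content. The Spearman correlation was -0.683 and -0.682 in TnfSnxB libraries 2 and 3, against -0.117 to 0.448 in the other 10. It was 0.382 to 0.448 in the Tnf libraries, 0.179 and 0.315 in Ctrl libraries 1 and 2, and -0.117 in Ctrl library 3. The chi-square per degree of freedom between TnfSnxB library 1 and its replicates was 5.79 and 5.51, against 1.07 to 1.59 in every other same-group pair. The main results that use TnfSnxB are therefore also given with library 1 alone and with GC content and transcript length corrected for. Of 8 genes set down as HEK293 markers, 6 averaged at least 1 CPM, and NEFM and PAX2 did not. The leukocyte and endothelial markers summed to at most 0.997 and 0.528 CPM in any library, with CD3E and CDH5 at 0 counts. The fibroblast markers summed to 14.7 to 18.5 CPM, nearly all from COL1A1, with DCN at 0 counts.

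In Ctrl cells GAPDH and ENO1 were the most abundant members per kilobase of annotated exon. GAPDH, which oxidises glyceraldehyde 3-phosphate, averaged 985 ± 11.6 CPM per kb (SD, n = 3 here and below). The enolase ENO1 averaged 846 ± 7.58, the lactate dehydrogenase subunit LDHB 638 ± 10.8, the triosephosphate isomerase TPI1 477 ± 9.82, the aldolase ALDOA 384 ± 3.58 and the pyruvate kinase PKM 262 ± 2.13 CPM per kb. These 6 levels were separated by more than their spread over libraries, which does not cover the choice of gene length. LDHA averaged 161 ± 3.91, the phosphoglycerate kinase PGK1 121 ± 5.46 and the phosphoglycerate mutase PGAM1 86.0 ± 3.23 CPM per kb. The genes of the entry steps lay lower. The hexokinases HK1 and HK2 averaged 20.6 ± 0.642 and 15.2 ± 0.719 CPM per kb and the glucose transporter SLC2A1 16.9 ± 0.881 CPM per kb. SLC2A1 and ENO2 (16.8 ± 0.522), its neighbour in this order, did not differ beyond their spread. Exon lengths were those of all annotated exons of a gene merged, so a gene with many rarely used exons reads lower on this scale. PKM has 8571 bases of merged exons and 3016 in its longest transcript, against 2700 and 1763 for TPI1. The order of genes given here therefore depends on the length taken.

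Of the HIF pathway genes, DDIT4, which encodes the mTORC1 inhibitor REDD1, and HIF1A were the most abundant in Ctrl cells, at 36.4 ± 3.25 and 36.05 ± 1.83 CPM per kb, and did not differ beyond their spread. EPAS1, the HIF-2 alpha subunit, averaged 1.11 ± 0.0698 CPM per kb. The other genes of this group ranged between VEGFA, the angiogenic growth factor, at 1.60 ± 0.0307, and P4HA1, a collagen prolyl hydroxylase subunit, at 18.2 ± 1.79 CPM per kb, except ANKRD37, an ankyrin repeat protein, at 0.932 ± 0.146. CA9, the carbonic anhydrase used as a marker of hypoxic cells, had 10 counts in the 12 libraries together and at most 0.172 CPM in any of them. It was at or under the floor everywhere, so no difference in CA9 was detectable at this depth, and it was the 1 member that did not pass the filter on low counts. The other 35 were tested.

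The first question was what Senexin B did to these genes without TNFα. In SnxB cells 5 members fell and none rose: the stress-response gene NDRG1, DDIT4, HK2, LDHA and SLC2A1. Over all 14822 tested genes 2.03% were called in this comparison, 1.69% lower and 0.344% higher. A gene was called when the Benjamini-Hochberg adjusted p of edgeR's quasi-likelihood test over all tested genes was under 0.05. In bulk RNA, fewer expressing cells and less RNA per cell cannot be told apart.

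NDRG1 (chromosome 8:133237171-133302022, minus strand, GRCh38), a gene induced by hypoxia and differentiation, had 34.2, 30.9 and 38.8 CPM in SnxB cells and 75.9, 72.4 and 74.4 CPM in Ctrl cells. Every SnxB library lay below every Ctrl library. The log2 fold change was -1.10 (SE 0.065, adjusted p = 2.63e-13), a level that fell by 53.5%. DDIT4 (chromosome 10:72273920-72276036, plus strand) had 44.1, 45.8 and 45.5 CPM in SnxB cells and 82.5, 70.1 and 72.0 CPM in Ctrl cells. Those groups did not overlap either, with a log2 fold change of -0.73 (SE 0.071, adjusted p = 1.76e-08). HK2 (chromosome 2:74833981-74893359, plus strand), the inducible hexokinase, had 69.3, 67.8 and 70.2 CPM in SnxB cells and 92.7, 96.4 and 87.7 CPM in Ctrl cells. HK2 was lower in all 3 SnxB libraries, with a log2 fold change of -0.42 (SE 0.051, adjusted p = 2.10e-06). These calls held under all 20 alternatives tried, including each library left out.

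LDHA (chromosome 11:18394388-18408425, plus strand), the muscle-type lactate dehydrogenase subunit, had 913, 853 and 905 CPM in SnxB cells and 1007, 972 and 1019 CPM in Ctrl cells. The groups were separate but close, with a log2 fold change of -0.17 (SE 0.032, adjusted p = 0.00236). SLC2A1 (chromosome 1:42925375-42959176, minus strand), the GLUT1 transporter that brings glucose into the cell, had 69.2, 68.7 and 67.9 CPM in SnxB cells and 82.7, 74.9 and 81.3 CPM in Ctrl cells, with a log2 fold change of -0.22 (SE 0.054, adjusted p = 0.0259). Both calls ended in fits that left out 1 library, where the log2 fold change was -0.14 for LDHA and -0.19 to -0.22 for SLC2A1. Without SnxB library 2 the LDHA call ended (adjusted p = 0.0640), and without Ctrl library 1 or 3 or any 1 SnxB library the SLC2A1 call ended (adjusted p = 0.0860 to 0.172). The plot of levels by library shows NDRG1, DDIT4 and HK2 with the SnxB and TnfSnxB points below those of their counterparts without the inhibitor.

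**Figure D1:**
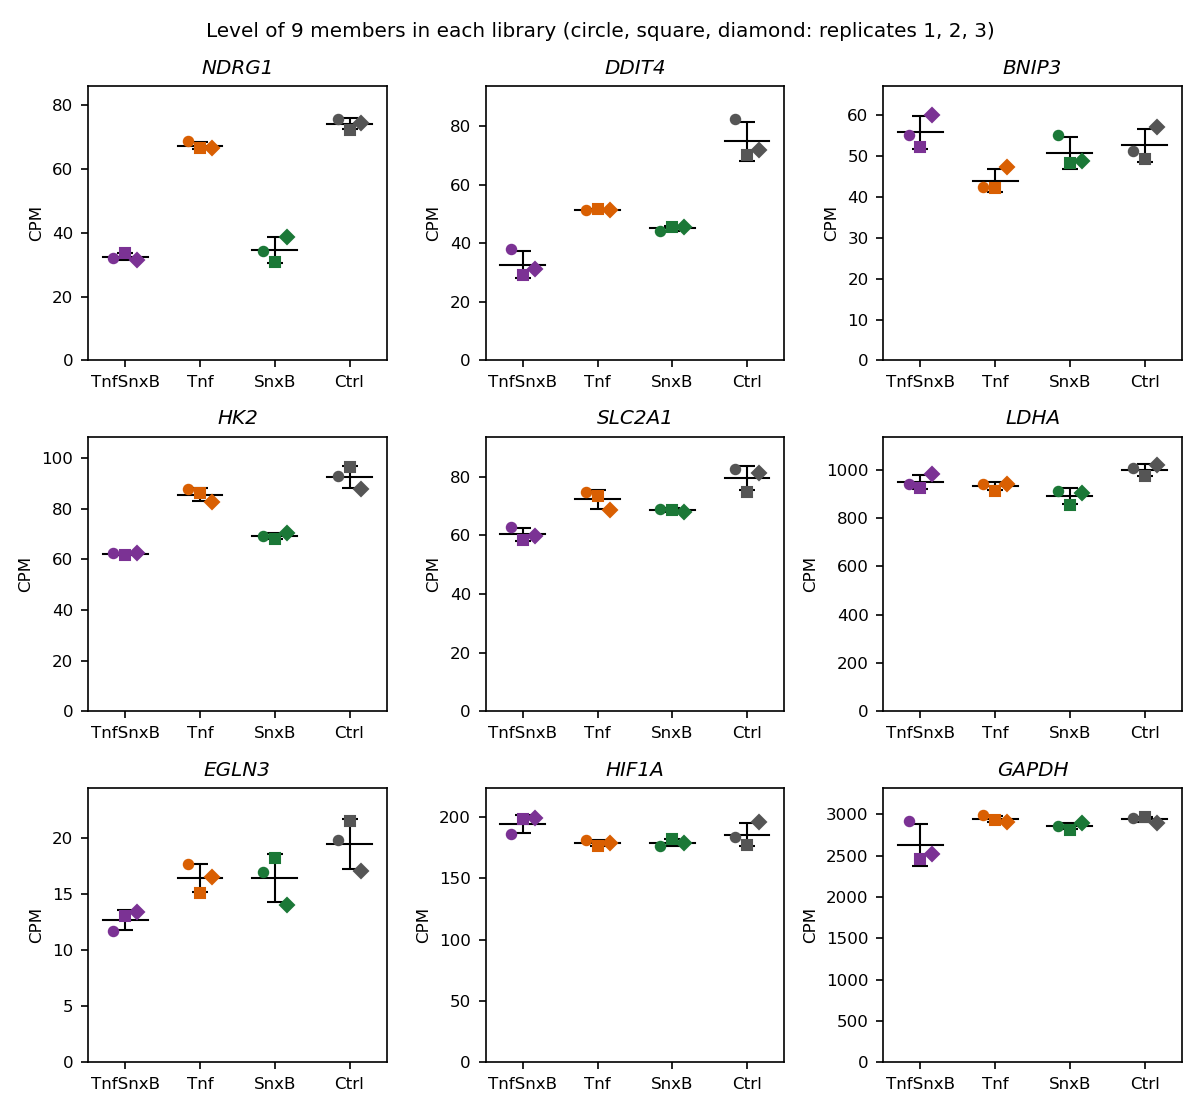
Level in CPM (y axis, from 0) of 9 members in each of the 12 libraries, by group (x axis: TnfSnxB, Tnf, SnxB, Ctrl), with circles, squares and diamonds for replicates 1, 2 and 3, a bar at the mean and whiskers of 1 SD. NDRG1 lay between 30.9 and 38.8 CPM in every library with Senexin B and between 66.7 and 75.9 CPM in every library without it, while GAPDH in TnfSnxB libraries 2 and 3 (2454 and 2518 CPM) lay below TnfSnxB library 1 (2918 CPM).

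The promoter windows of the members called in SnxB or Tnf against Ctrl are shown because these are the members whose levels moved without the combined treatment. RefSeq windows of 300 bases (250 before and 50 after the start, GRCh38.p14) were found for 33 of the 36 members. They are given for DDIT4 (chr10:72273674-72273973, plus strand), HK2 (chr2:74833877-74834176, plus), SLC2A1 (chr1:42958819-42959118, minus), LDHA (chr11:18394313-18394612, plus) and BNIP3 (chr10:131981874-131982173, minus), each 5′ to 3′ on the gene's strand. The bases after the start of the HK2 window were not found in a GENCODE 29 transcript. NDRG1, VEGFA and BNIP3L have no window here. Capitals mark the HIF core letters ACGTG or GCGTG on either strand (CACGT and CACGC are the other-strand forms). The palindrome CACGTG, the E-box letters that MYC and its partners also bind, counts as a match on both strands.
DDIT4: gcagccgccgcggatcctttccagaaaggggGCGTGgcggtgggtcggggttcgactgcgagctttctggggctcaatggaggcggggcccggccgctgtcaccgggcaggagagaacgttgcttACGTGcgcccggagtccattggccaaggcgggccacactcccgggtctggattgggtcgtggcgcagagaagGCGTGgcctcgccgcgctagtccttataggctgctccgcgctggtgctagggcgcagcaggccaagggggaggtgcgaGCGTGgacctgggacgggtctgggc
HK2: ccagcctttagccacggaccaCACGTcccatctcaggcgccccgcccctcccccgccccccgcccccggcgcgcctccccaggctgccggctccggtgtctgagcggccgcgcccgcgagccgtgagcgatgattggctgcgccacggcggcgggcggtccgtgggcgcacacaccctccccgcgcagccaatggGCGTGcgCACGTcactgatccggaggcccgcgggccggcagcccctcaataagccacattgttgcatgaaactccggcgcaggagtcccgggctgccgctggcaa
SLC2A1: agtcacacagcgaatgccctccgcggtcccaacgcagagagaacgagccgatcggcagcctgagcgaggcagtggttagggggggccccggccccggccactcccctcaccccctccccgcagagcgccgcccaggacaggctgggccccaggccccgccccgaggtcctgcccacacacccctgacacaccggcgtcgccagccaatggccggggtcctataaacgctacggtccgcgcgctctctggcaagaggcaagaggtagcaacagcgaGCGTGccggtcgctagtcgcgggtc
LDHA: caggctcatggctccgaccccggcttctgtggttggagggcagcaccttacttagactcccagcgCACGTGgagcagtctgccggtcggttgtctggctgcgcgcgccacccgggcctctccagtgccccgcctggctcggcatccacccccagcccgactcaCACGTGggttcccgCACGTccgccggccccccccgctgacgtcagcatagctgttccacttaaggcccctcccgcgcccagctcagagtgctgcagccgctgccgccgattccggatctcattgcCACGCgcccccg
BNIP3: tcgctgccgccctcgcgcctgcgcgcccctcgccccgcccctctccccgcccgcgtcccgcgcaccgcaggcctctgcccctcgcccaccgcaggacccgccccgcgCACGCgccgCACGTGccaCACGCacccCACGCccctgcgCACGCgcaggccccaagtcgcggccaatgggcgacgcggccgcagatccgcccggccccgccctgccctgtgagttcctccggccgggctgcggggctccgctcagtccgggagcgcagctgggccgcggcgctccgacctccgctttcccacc

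The capitals form 4 separate stretches in DDIT4, 3 in HK2, 1 in SLC2A1, 4 in LDHA and 5 in BNIP3. The LDHA and BNIP3 windows hold CACGTG, as do those of ALDOC, GAPDH and ANKRD37. Of the 33 windows 26 held ACGTG or GCGTG on some strand (16 of 21 glycolysis genes and 10 of 12 HIF pathway genes). The share was 48.4% of all 27305 windows and 65.4% of the 8598 windows of genes with at least 1000 counts in the 12 libraries. CACGTG was in 5 of 33, against 10.5% of those 8598. Each match describes letters in a short window only. PGK1 and ALDOC, not called in the main test of SnxB or Tnf against Ctrl, hold 4 stretches each. Both were called lower in SnxB against Ctrl after the GC and length correction. GPI and PFKL, without a call in those comparisons under any alternative, hold 1 each, as SLC2A1 does.

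The other 18 tested glycolysis genes were not called in SnxB against Ctrl. Over all 21 glycolysis genes, 13 had all SnxB libraries below all Ctrl libraries and 1 had all above, with the called HK2, LDHA and SLC2A1 among the 13. Of the 14 tested HIF pathway genes 4 lay below, the called NDRG1 and DDIT4 among them, and none above. Over all tested genes 20.4% were separated in either direction and 10.9% on the lower side. ENO1 averaged 4278 ± 47.9 CPM in SnxB cells and 4462 ± 40.0 CPM in Ctrl cells, a log2 fold change of -0.06 (95% interval -0.13 to 0.01). PGK1 averaged 606 ± 17.4 CPM in SnxB cells and 664 ± 30.1 CPM in Ctrl cells (log2 fold change -0.13, adjusted p = 0.0650). The minor aldolase ALDOC had 8.09, 5.49 and 6.67 CPM in SnxB cells and 8.51, 10.0 and 10.7 CPM in Ctrl cells, with a log2 fold change of -0.54 and an adjusted p of 0.0773. The 1 gene on the higher side was PFKFB4, a bifunctional enzyme that sets fructose 2,6-bisphosphate, with 8.55, 9.00 and 8.15 CPM in SnxB cells and 5.99, 6.48 and 6.98 CPM in Ctrl cells (log2 fold change 0.40, adjusted p = 0.118).

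The median log2 fold change in SnxB against Ctrl was -0.06 over the glycolysis genes and -0.13 over the 14 tested HIF pathway genes, against 0.0025 over all tested genes. Together the 21 glycolysis genes took 1.71 ± 0.0221% of counts in SnxB libraries and 1.76 ± 0.00486% in Ctrl libraries, and the HIF pathway genes took 0.0638 ± 0.000554% in SnxB libraries and 0.0719 ± 0.00178% in Ctrl libraries. Of the HIF pathway genes without a call, VEGFA averaged 19.3 ± 2.08 CPM in SnxB cells and 23.1 ± 0.443 CPM in Ctrl cells (log2 fold change -0.25, adjusted p = 0.151). EPAS1 had a log2 fold change of -0.31 (95% interval -0.58 to -0.04, adjusted p = 0.320). For HIF1A the interval ran between -0.14 and 0.04, and for the oxygen sensor EGLN1 between -0.07 and 0.13. After the GC and length correction 9 members were called lower, the same 5 with ALDOC, PGK1, VEGFA and the pyruvate dehydrogenase kinase PDK1, against 4.34% of all genes called and 3.16% called lower. When TnfSnxB libraries 2 and 3 were left out of the shared estimate of spread, 12 were called lower, the same 5 with ALDOA, ALDOC, TPI1, PGK1, ENO1, PKM and LDHB, against 5.66% called and 4.08% called lower. The log2 fold changes of the 7 added genes there were -0.06 to -0.54.

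TNFα alone moved few members. In Tnf against Ctrl, 2 HIF pathway genes fell, DDIT4 and BNIP3, and none rose. No glycolysis gene was called by edgeR or by DESeq2, with 6 of the 21 at an unadjusted p under 0.05 in edgeR. The share of all tested genes at that unadjusted threshold was not taken, here or below, so such counts have no background to be read against. Over all tested genes 2.02% were called, 0.594% lower and 1.43% higher. The NF-kB inhibitor gene NFKBIA, a classic TNFα target and no member, averaged 271 ± 1.68 CPM in Tnf cells and 27.3 ± 1.94 CPM in Ctrl cells, so the cytokine's response was present in these libraries. DDIT4 had 51.4, 51.8 and 51.5 CPM in Tnf cells and 82.5, 70.1 and 72.0 CPM in Ctrl cells. The groups were separate, with a log2 fold change of -0.54 (SE 0.064, adjusted p = 1.19e-06), and the call held under all 20 alternatives.

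BNIP3 (chromosome 10:131966455-131982013, minus strand), a mitochondrial protein of mitophagy and cell death, had 42.4, 42.3 and 47.3 CPM in Tnf cells and 51.4, 49.3 and 57.3 CPM in Ctrl cells. All Tnf libraries were lower, but by little against the spread of Ctrl cells, and the log2 fold change was -0.27 (SE 0.067, adjusted p = 0.0218). The call ended without Ctrl library 1 or 3, or without Tnf library 1 or 2 (adjusted p = 0.0641 to 0.319). Rows for pseudogenes named after BNIP3 held counts equal to 1.08% of those of BNIP3 itself, the highest such share of the 36 members.

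Of the other members, 8 had all Tnf libraries below all Ctrl libraries without a call and none had all above. With DDIT4 and BNIP3 that made 10 of 35, against 20.2% of all tested genes separated in either direction and 10.0% on the lower side. SLC2A1 had 74.7, 73.4 and 68.7 CPM in Tnf cells and 82.7, 74.9 and 81.3 CPM in Ctrl cells (log2 fold change -0.14, adjusted p = 0.229), and LDHA had 942, 914 and 941 CPM in Tnf cells and 1007, 972 and 1019 CPM in Ctrl cells (log2 fold change -0.10, adjusted p = 0.134). NDRG1 had 68.7, 66.7 and 66.7 CPM in Tnf cells and 75.9, 72.4 and 74.4 CPM in Ctrl cells, with a log2 fold change of -0.14 (95% interval -0.26 to -0.03). The abundant enzymes had narrow intervals around 0, such as -0.07 to 0.08 for ENO1 and for GAPDH and -0.08 to 0.08 for PKM. EGLN3, the hydroxylase that HIF itself induces, had 17.7, 15.2 and 16.5 CPM in Tnf cells and 19.9, 21.6 and 17.1 CPM in Ctrl cells (log2 fold change -0.28, adjusted p = 0.177), and those groups overlapped.

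The median log2 fold change in Tnf against Ctrl was -0.03 over the glycolysis genes and -0.13 over the HIF pathway genes, against -0.0025 over all tested genes. The GC and length correction gave 5 lower members (SLC2A1, NDRG1, DDIT4, BNIP3 and EGLN3), against 3.82% of all genes called and 1.61% called lower. Without TnfSnxB libraries 2 and 3 in the fit there were 9, the same 5 with ALDOC, PGK1, LDHA and P4HA1, against 5.62% called and 2.21% called lower. The plot of fold changes sets the intervals of both single treatments side by side.

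**Figure D2:**
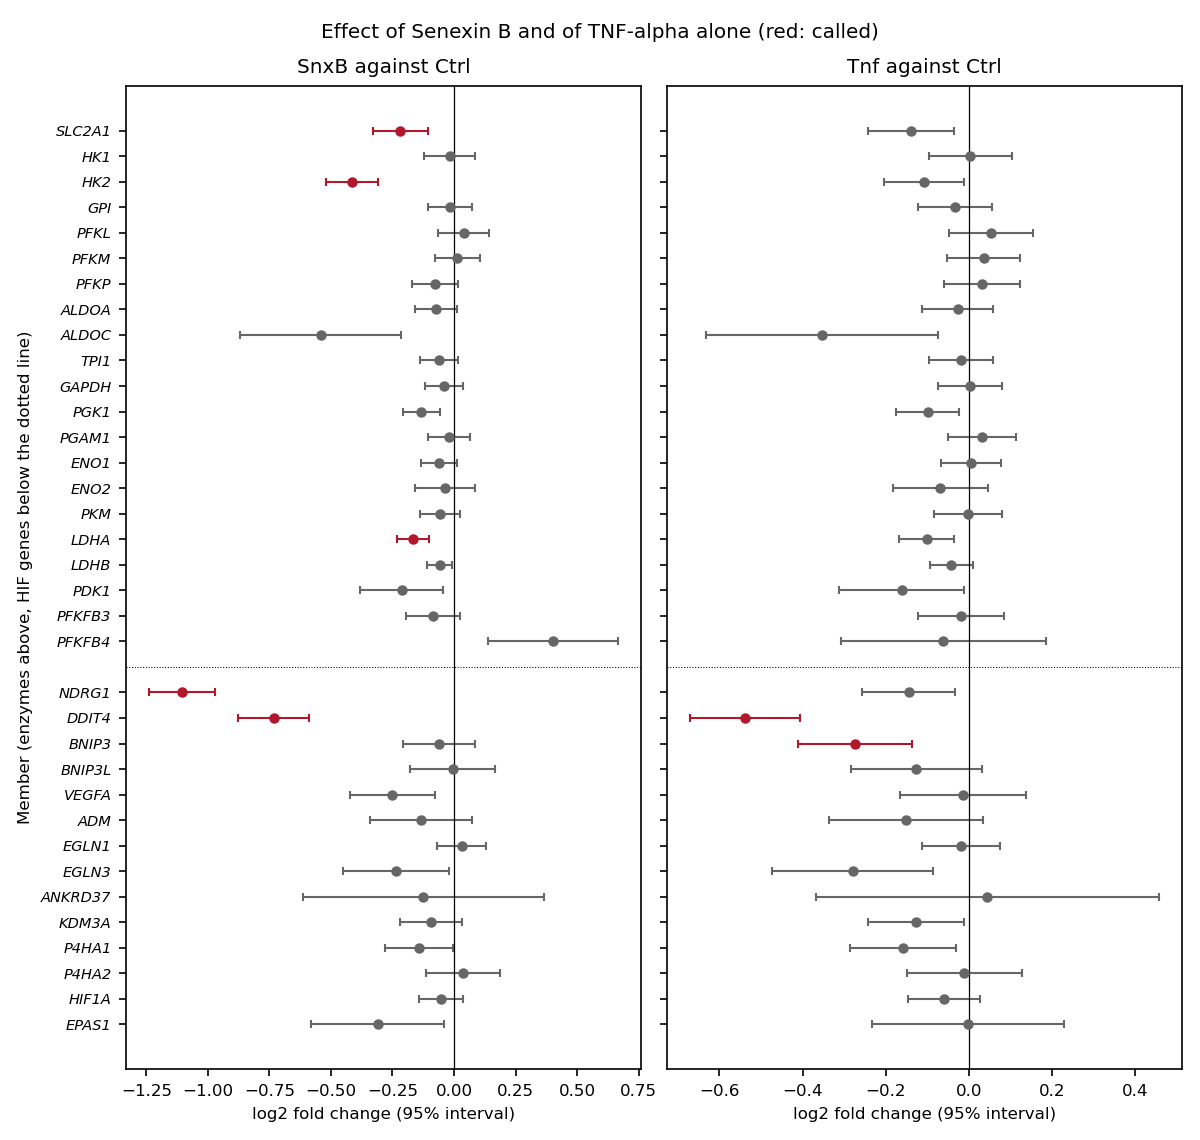
Log2 fold change (x axis) with its 95% interval for each of the 35 tested members (y axis, glycolysis genes above the dotted line and HIF pathway genes below), in SnxB against Ctrl (left) and Tnf against Ctrl (right), with called members in red. NDRG1 at -1.10 and DDIT4 at -0.73 lie farthest left under Senexin B, and DDIT4 at -0.54 under TNFα. The panels have different x ranges.

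The next comparison asked what Senexin B did in cells that also had TNFα. NDRG1, DDIT4 and HK2 were again lower and BNIP3 was higher, whichever TnfSnxB libraries were used. These libraries were independent of those of SnxB against Ctrl. BNIP3 was not called in SnxB against Ctrl (log2 fold change -0.06, adjusted p = 0.824). Its mean was 55.8 CPM in TnfSnxB cells, 44.0 in Tnf cells, 50.7 in SnxB cells and 52.6 in Ctrl cells. With all 3 TnfSnxB libraries 15 members fell and 4 rose, but 27.2% of all tested genes were called in this comparison, 13.9% lower and 13.3% higher. All TnfSnxB libraries lay below all Tnf libraries for 9 members and above them for 5, against 32.1% of all genes separated in either direction. With TnfSnxB library 1 alone 3 members fell and 1 rose, against 2.64% of all tested genes called and 1.91% called lower, and its spread was then taken as that of the other groups. After the GC and length correction 5 fell and 2 rose, against 11.6% called and 6.57% called lower.

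NDRG1 had 32.3, 33.8 and 31.6 CPM in TnfSnxB cells and 68.7, 66.7 and 66.7 CPM in Tnf cells. The groups were far apart in every library, with a log2 fold change of -1.05 (SE 0.061, adjusted p = 2.46e-13), -1.06 with library 1 alone and -0.98 after the correction. HK2 had 62.5, 61.6 and 62.3 CPM in TnfSnxB cells and 87.7, 86.3 and 82.5 CPM in Tnf cells. Its log2 fold change was -0.46 (SE 0.049, adjusted p = 7.81e-08), -0.46 with library 1 alone and -0.42 after the correction. DDIT4 had 38.0, 29.2 and 31.2 CPM in TnfSnxB cells and 51.4, 51.8 and 51.5 CPM in Tnf cells. Here the size did depend on the libraries that stood apart: the log2 fold change was -0.67 (SE 0.072, adjusted p = 9.66e-08) with all 3, -0.45 with library 1 alone (adjusted p = 0.000150) and -0.52 after the correction.

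BNIP3 had 55.1, 52.2 and 60.1 CPM in TnfSnxB cells and 42.4, 42.3 and 47.3 CPM in Tnf cells. It rose with a log2 fold change of 0.36 (SE 0.066, adjusted p = 0.000310), 0.35 with library 1 alone (adjusted p = 0.00379) and 0.43 after the correction. SLC2A1 had 62.9, 58.5 and 59.9 CPM in TnfSnxB cells and 74.7, 73.4 and 68.7 CPM in Tnf cells. The groups did not overlap and the log2 fold change was -0.26 (SE 0.052, adjusted p = 0.000580), while library 1 alone gave -0.21 and ended the call (adjusted p = 0.0893). EGLN3 had 11.7, 13.1 and 13.4 CPM in TnfSnxB cells and 17.7, 15.2 and 16.5 CPM in Tnf cells. Its log2 fold change of -0.32 (SE 0.10, adjusted p = 0.0204) held after the correction (adjusted p = 0.0393) but not with the replicate block and the correction (adjusted p = 0.0557). The call also ended without Tnf library 1 or 3, without TnfSnxB library 2 (adjusted p = 0.0540 to 0.0659) or with library 1 alone, where the value was -0.43 (adjusted p = 0.123).

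The other members called with all 3 TnfSnxB libraries were 9 more glycolysis genes that fell, GPI, PFKL, PFKP, ALDOA, TPI1, GAPDH, ENO1, PKM and PFKFB3, with log2 fold changes of -0.13 to -0.20. GPI isomerises glucose 6-phosphate, and PFKFB3 makes the fructose 2,6-bisphosphate that activates phosphofructokinase. GAPDH had 2918, 2454 and 2518 CPM in TnfSnxB cells and 2984, 2935 and 2906 CPM in Tnf cells. ENO1 had 4481, 3835 and 3882 CPM in TnfSnxB cells and 4526, 4419 and 4484 CPM in Tnf cells. In both genes TnfSnxB library 1 lay within the range of the Tnf libraries, and libraries 2 and 3 lay below it. All 9 calls ended with library 1 alone, where the log2 fold changes were -0.07 to 0.0086, and after the GC and length correction, where they were -0.08 to 0.04. With the replicate block added to the correction the calls of GPI (-0.08, adjusted p = 0.0461) and PKM (-0.08, adjusted p = 0.0264) held. Leaving out TnfSnxB library 2 by itself ended the calls of GPI, PFKL, ALDOA, TPI1, ENO1, PKM and PFKFB3, and leaving out library 3 by itself those of GPI, TPI1, PKM and PFKFB3 (adjusted p = 0.0539 to 0.131 over these). Those of GPI and TPI1 also ended without Tnf library 1, and that of PFKFB3 without Tnf library 2 (adjusted p = 0.0516 to 0.120).

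The remaining called HIF pathway genes were less alike. With library 1 alone VEGFA nearly kept its log2 fold change and P4HA1 most of it, while those of BNIP3L and HIF1A shrank more. VEGFA fell, with 19.8, 20.8 and 18.6 CPM in TnfSnxB cells and 22.5, 22.6 and 23.7 CPM in Tnf cells (log2 fold change -0.22, adjusted p = 0.0327), a call that ended with DESeq2 (adjusted p = 0.0821) and in a fit of the compared groups alone (adjusted p = 0.0631). BNIP3L, the BNIP3 paralogue of mitophagy, rose by 0.28 (adjusted p = 0.00731), P4HA1 by 0.22 (adjusted p = 0.00811) and HIF1A by 0.13 (adjusted p = 0.0255) on the log2 scale. HIF1A had 186, 199 and 199 CPM in TnfSnxB cells and 181, 177 and 179 CPM in Tnf cells. With library 1 alone the values were -0.21 for VEGFA, 0.10 for BNIP3L, 0.18 for P4HA1 and 0.06 for HIF1A, and after the correction -0.13, 0.12, 0.12 and -0.05, with no call in any of these. Single libraries also ended these calls: TnfSnxB library 3 for all of them, TnfSnxB library 2 for HIF1A, Tnf library 2 for P4HA1, and each of the Tnf libraries for VEGFA and HIF1A (adjusted p = 0.0526 to 0.203). ENO2, the neuronal enolase, was called higher only after the correction (log2 fold change 0.14, adjusted p = 0.0167), against 0.04 without it. Exons of BNIP3L overlap those of PNMA2 on the other strand (5345 and 6417 counts in the 12 libraries), and without a stated strand setting reads of the pair cannot be told apart.

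**Figure D3:**
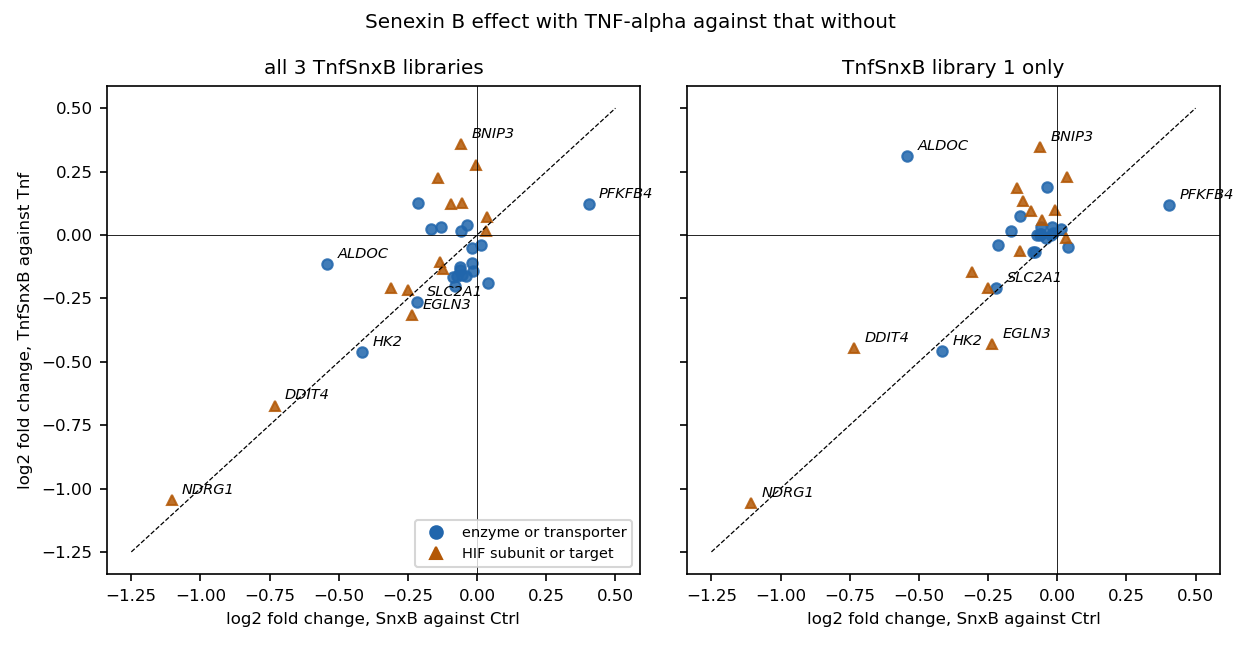
Log2 fold change of the 35 tested members in TnfSnxB against Tnf (y axis) plotted against that in SnxB against Ctrl (x axis), with all 3 TnfSnxB libraries (left) and with TnfSnxB library 1 only (right), circles for glycolysis genes and triangles for HIF pathway genes, and a dashed line of equal values. NDRG1, HK2 and SLC2A1 lie near the line in both panels, and most glycolysis genes lie below 0 on the y axis in the left panel and near 0 in the right.

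Members with higher GC content had lower values in this comparison. Across the 35 tested members the Spearman correlation between the log2 fold change and GC content of the longest transcript was -0.53 with all 3 TnfSnxB libraries and -0.35 with library 1 alone, and across all 13419 tested genes with a GC value it was -0.706, and -0.171 over 13694 genes with library 1 alone. The points of each value share their libraries, and no test was made. The same correlation over all genes was 0.0549 in SnxB against Ctrl and 0.274 in Tnf against Ctrl. The median log2 fold change of the glycolysis genes in TnfSnxB against Tnf was -0.13 with all libraries, 0.0019 with library 1 alone and -0.03 after the correction, against 0.00066, -0.0038 and 0.0082 over all tested genes. That of the HIF pathway genes was -0.05, 0.02 and -0.06. The part of GC content in these differences was not tested beyond the correction.

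**Figure D4:**
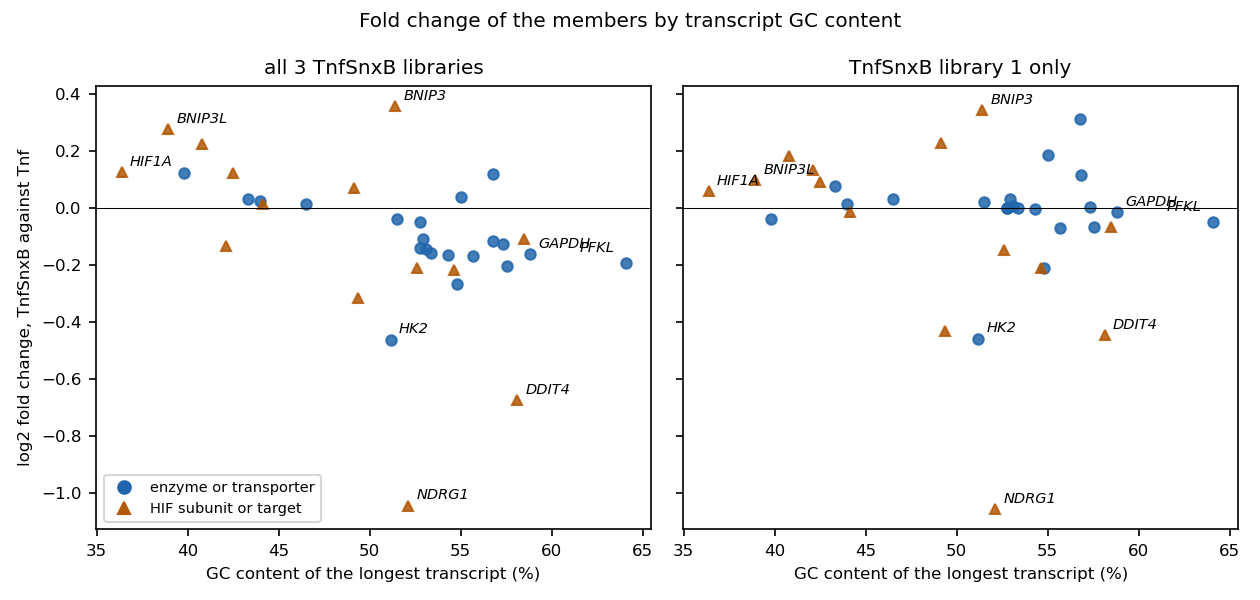
Log2 fold change in TnfSnxB against Tnf (y axis) by GC content of the longest transcript in percent (x axis) for the 35 tested members, with all 3 TnfSnxB libraries (left) and TnfSnxB library 1 only (right), circles for glycolysis genes and triangles for HIF pathway genes. GAPDH at 58.8% GC and PFKL at 64.1% lie at -0.16 and -0.19 in the left panel and at -0.01 and -0.05 in the right, while NDRG1 at 52.1% stays at -1.05 and -1.06.

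The response to TNFα under Senexin B was read from TnfSnxB against SnxB. DDIT4 again fell, with 38.0, 29.2 and 31.2 CPM in TnfSnxB cells and 44.1, 45.8 and 45.5 CPM in SnxB cells, a log2 fold change of -0.48 (SE 0.079, adjusted p = 0.000225), -0.38 after the GC and length correction and -0.25 with TnfSnxB library 1 alone, which ended the call (adjusted p = 0.245). In all 6 members fell (SLC2A1, GPI, PFKL, GAPDH, DDIT4 and EGLN3) and 1, P4HA1, rose, against 14.2% of all tested genes called, 6.83% lower and 7.38% higher. All TnfSnxB libraries lay below all SnxB libraries for 5 members and above them for 4, against 22.7% of all genes separated in either direction. With library 1 alone edgeR called none of the 35, with 10 at an unadjusted p under 0.05, against 1.43% of all genes called. After the correction GPI, DDIT4 and EGLN3 were lower, against 4.90% called and 2.02% called lower. SLC2A1 averaged 60.4 ± 2.26 CPM in TnfSnxB cells and 68.6 ± 0.630 CPM in SnxB cells (log2 fold change -0.19, adjusted p = 0.0267). NDRG1, which had fallen under Senexin B alone, had a log2 fold change of -0.09 here (95% interval -0.23 to 0.06).

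Apart from DDIT4, these calls also ended when single libraries were left out. Without SnxB library 1 or 2 or TnfSnxB library 2 or 3 the calls of GPI and EGLN3 ended (adjusted p = 0.0553 to 0.185), and without SnxB library 2 or 3 or TnfSnxB library 2 or 3 that of PFKL (adjusted p = 0.0550 to 0.155). Those of SLC2A1 and P4HA1 ended without any 1 SnxB library or without TnfSnxB library 2 or 3 (adjusted p = 0.0793 to 0.156). That of GAPDH ended in 8 of the 12 cases, each SnxB and Tnf library and TnfSnxB libraries 2 and 3 (adjusted p = 0.0507 to 0.274).

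Whether Senexin B altered the effect of TNFα was tested as the difference between TnfSnxB against SnxB and Tnf against Ctrl, which equals the difference between the Senexin B effects with and without TNFα. By the main edgeR test it was positive and called for BNIP3, LDHA and P4HA1, and for no other member. That compares with 2.50% of all tested genes called, 0.891% higher and 1.61% lower. For BNIP3 the effect of TNFα was 0.14 with Senexin B and -0.27 without it on the log2 scale, and the difference was 0.42 (SE 0.097, adjusted p = 0.0298). For LDHA the effects were 0.09 and -0.10, with a difference of 0.19 (SE 0.046, adjusted p = 0.0324), and for P4HA1 0.21 and -0.16, with a difference of 0.37 (SE 0.091, adjusted p = 0.0363). P4HA1 had 57.2, 59.3 and 60.7 CPM in TnfSnxB cells, 55.9, 49.2 and 49.0 CPM in Tnf cells, 51.7, 51.0 and 51.1 CPM in SnxB cells, and 57.6, 50.3 and 61.1 CPM in Ctrl cells. LDHA had 942, 922 and 981 CPM in TnfSnxB cells, against 913, 853 and 905 CPM in SnxB cells. Each of these calls ended in 10 of the 12 cases in which 1 library was left out, with adjusted p up to 0.146, and the 2 exceptions for each were Ctrl library 2 and TnfSnxB library 1. After the correction BNIP3 alone was called (0.49, adjusted p = 0.00106, against 0.297% of all genes called and 0.196% called lower), and with TnfSnxB library 1 alone LDHA (0.18, adjusted p = 0.00283) and PGK1 (0.21, adjusted p = 0.00270) were, against 0.124%, with BNIP3 at 0.41 (adjusted p = 0.0632) and P4HA1 at 0.33 (adjusted p = 0.255). PFKL had a negative interaction of -0.23 that the main edgeR test did not call (adjusted p = 0.0655). DESeq2 (adjusted p = 0.0498), edgeR with no low-count filter (0.0332) and edgeR with the replicate block (0.0480) did call it. The block also called PGK1 (0.16, adjusted p = 0.0460). The interaction of PFKL was 0.02 after the correction and -0.09 with library 1 alone.

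For the 4 members called lower in both Senexin B comparisons the interaction was not called. It was 0.06 for NDRG1 (95% interval -0.13 to 0.25), -0.05 for HK2 (-0.19 to 0.10), -0.05 for SLC2A1 (-0.20 to 0.11) and 0.06 for DDIT4 (-0.15 to 0.27) on the log2 scale. With library 1 alone it was 0.05 for NDRG1, -0.04 for HK2, 0.01 for SLC2A1 and 0.29 for DDIT4, and after the correction 0.13, -0.0020, 0.05 and 0.20, so the intervals with all libraries do not cover the choice of libraries. For the abundant enzymes ENO1 and GAPDH it was -0.08 (-0.18 to 0.02) and -0.12 (-0.23 to -0.01, adjusted p = 0.169) with all libraries, 0.06 and 0.03 with library 1 alone, and -0.01 and 0.03 after the correction.

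Where a step has several genes, the balance between them was read per kilobase of exon. The shares depend on the length taken, as the order of genes does, and those of TnfSnxB pool its 3 libraries. HK2 made up 34.9 ± 1.89% of the summed level of HK1 and HK2 in TnfSnxB cells and 40.6 ± 0.961% in Tnf cells, and 35.9 ± 0.454% in SnxB cells and 42.5 ± 1.35% in Ctrl cells. In both pairs the libraries with Senexin B lay below all those without it. Over the TnfSnxB libraries the HK2 share ran between 32.9 and 36.7%, and HK1 had 132, 119 and 112 CPM in libraries 1, 2 and 3. HK1, the constitutive hexokinase, averaged 121 ± 10.4, 130 ± 2.03, 128 ± 0.487 and 129 ± 4.04 CPM in TnfSnxB, Tnf, SnxB and Ctrl cells and was called in none of these comparisons. LDHB took 80.4 ± 0.509% of LDHA and LDHB in TnfSnxB cells and 80.5 ± 0.367% in Tnf cells, and 81.0 ± 0.550% in SnxB cells and 79.9 ± 0.176% in Ctrl cells. PFKP, the platelet-type phosphofructokinase, was the main one of its kind in each group, at 62.3 ± 0.397% in TnfSnxB cells, 63.7 ± 0.756% in Tnf cells, 62.1 ± 0.584% in SnxB cells and 63.8 ± 0.652% in Ctrl cells. Exons of PFKM overlap those of SENP1 on the other strand, and those of ANKRD37 and CA9 overlap UFSP2 and ARHGEF39, so their levels may hold reads of those genes.

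ENO2 was 1.85 to 2.11% of the enolases and ALDOC 0.626 to 0.858% of the aldolases in the group means. PFKFB4 took 11.4 ± 0.570% of PFKFB3 and PFKFB4 in SnxB cells and 8.42 ± 0.655% in Ctrl cells, and 9.79 ± 0.627% in TnfSnxB cells and 8.49 ± 1.05% in Tnf cells. EGLN3 was 12.2 ± 0.597% of EGLN1 and EGLN3 in TnfSnxB cells and 15.3 ± 1.15% in Tnf cells, and 14.8 ± 1.39% in SnxB cells and 17.4 ± 1.46% in Ctrl cells. EPAS1 was 2.49 ± 0.198% of both alpha subunits in TnfSnxB cells and 3.05 ± 0.330% in Tnf cells, and 2.50 ± 0.234% in SnxB cells and 3.00 ± 0.325% in Ctrl cells. These shares are descriptions over 3 libraries a group.

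**Figure D5:**
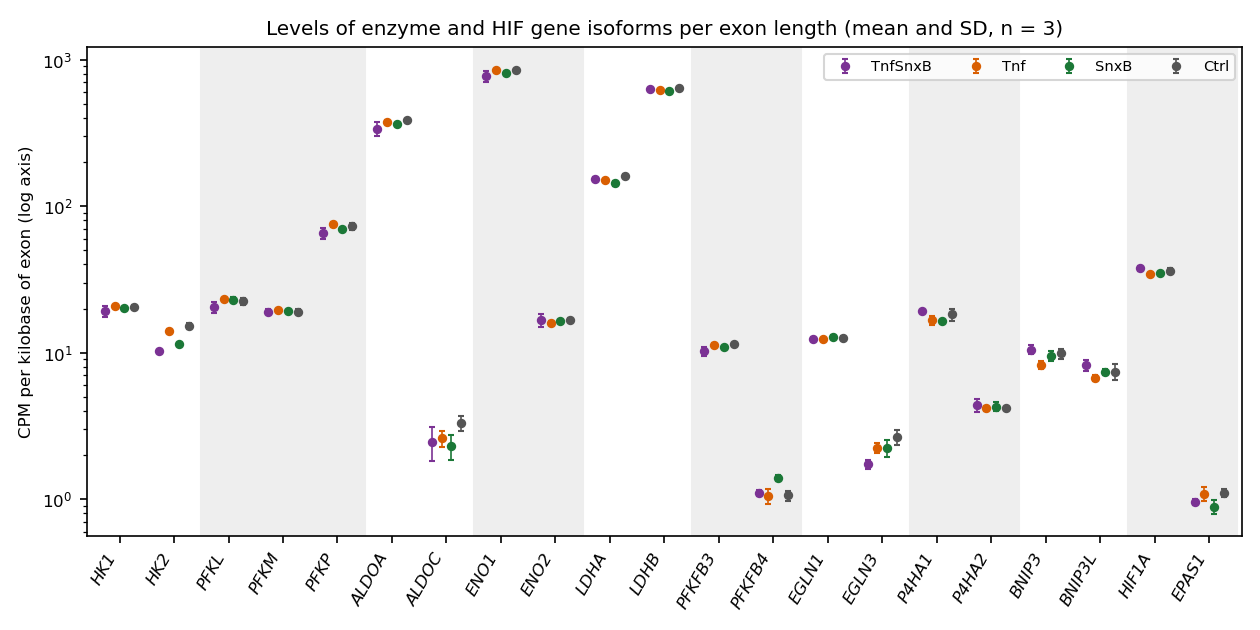
Level of genes that serve the same step or family, in CPM per kilobase of annotated exon (y axis, log scale), with the mean and SD over 3 libraries for TnfSnxB, Tnf, SnxB and Ctrl and grey bands separating families. HK2 lies near 10.2 and 11.4 with Senexin B and near 14.1 and 15.2 without it, while HK1 lies between 19.2 and 20.7 in all groups.

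Further genes of both pathways were counted from wider lists. Of 36 other genes of glucose, lactate and glycogen metabolism, 29 were tested. In SnxB against Ctrl 1 of them fell and none rose, where 1.69% of all tested genes were called lower and 0.344% higher. That gene was SLC16A1, the MCT1 lactate transporter, at 299.9 ± 5.70 CPM in SnxB cells and 358.5 ± 5.87 CPM in Ctrl cells (log2 fold change -0.26, adjusted p = 1.00e-05). In TnfSnxB against Tnf its log2 fold change was -0.06 with all libraries (adjusted p = 0.232), -0.09 with library 1 alone and -0.14 after the correction (adjusted p = 7.74e-05). In TnfSnxB against SnxB it rose by 0.18 (adjusted p = 0.000975), and the interaction was 0.20 (adjusted p = 0.0324), which the correction left at 0.12 (adjusted p = 0.229). None of the 29 was called by the main edgeR test in Tnf against Ctrl, and 1 had an unadjusted p under 0.05. There 2.02% of all tested genes were called. In TnfSnxB against Tnf 4 rose and 5 fell, where 27.2% of all tested genes were called, and with library 1 alone none was called by edgeR, with 2 at an unadjusted p under 0.05. The falls included the transketolase TKT of the pentose phosphate pathway, with a log2 fold change of -0.22 (adjusted p = 0.00101), which was -0.06 with library 1 alone (adjusted p = 0.496) and -0.11 after the correction, where the call held (adjusted p = 0.00377).

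Of 35 tested genes of a wider HIF list, 4 fell and none rose in SnxB against Ctrl, where 1.69% of all tested genes were called lower. In Tnf against Ctrl 4 fell and 1 rose, where 0.594% of all genes were called lower and 1.43% higher. STC2, a secreted glycoprotein gene, averaged 48.4 ± 4.31 CPM in SnxB cells and 71.2 ± 4.69 CPM in Ctrl cells (log2 fold change -0.56, adjusted p = 2.10e-06), and 55.2 ± 0.832 CPM in Tnf cells (log2 fold change -0.36, adjusted p = 0.000444). CITED2, a HIF target that competes with HIF1A for the coactivator p300, averaged 19.4 ± 1.71 CPM in TnfSnxB cells, 32.4 ± 1.82 CPM in Tnf cells, 32.6 ± 1.56 CPM in SnxB cells and 41.2 ± 1.54 CPM in Ctrl cells. It fell in all 4 pairwise comparisons, by 0.74 on the log2 scale in TnfSnxB against Tnf (0.64 with library 1 alone). The interaction of CITED2 was -0.40 by edgeR (adjusted p = 0.0377), -0.41 after the correction (adjusted p = 0.0306) and -0.30 with library 1 alone. CXCR4, the chemokine receptor, averaged 2.66 ± 0.458 CPM in SnxB cells and 8.72 ± 0.761 CPM in Ctrl cells (log2 fold change -1.71, adjusted p = 1.63e-08). KCTD11, an adaptor of ubiquitin ligases, was the 1 gene that rose under TNFα, at 9.24 ± 0.0810 CPM in Tnf cells and 5.97 ± 0.586 CPM in Ctrl cells (log2 fold change 0.63, adjusted p = 0.00187). BNIP2 had log2 fold changes of 0.11 in SnxB against Ctrl (adjusted p = 0.501) and 0.27 in TnfSnxB against Tnf (adjusted p = 0.000653), and 0.18 in the last with library 1 alone (adjusted p = 0.187).

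MYC, a transcription factor that drives many glycolysis genes including LDHA, averaged 21.9 ± 2.82 CPM in TnfSnxB cells and 90.5 ± 2.28 CPM in Tnf cells, and 18.05 ± 0.789 CPM in SnxB cells and 91.1 ± 4.00 CPM in Ctrl cells. Its log2 fold change was -2.06 (-1.84 with TnfSnxB library 1 alone) and -2.33 in these comparisons (adjusted p = 5.56e-20 and 4.29e-20). Its part in the lower levels of the members was not tested.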

How the data were processed

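Per the labels' protocols, RNA of HEK293 cells came from an RNeasy kit and libraries from a TruSeq kit. The authors deposited whole-number counts per gene symbol for 12 samples, with no normalization. Per the submitters' processing notes, the genome was hg38 (GRCh38) and the tools were featureCounts (Subread 1.4.6), SAMtools 1.2 and STAR 2.4. Which annotation, strand setting and other settings were used is not given in the sources used here, so reads of genes that overlap on opposite strands, and of near-identical copies, may be shared between rows.

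Groups were taken from the sample titles. Counts were filtered with filterByExpr by group (14822 of 56634 genes kept), scaled by TMM and tested with edgeR 4.0.16 (R 4.3.3) by quasi-likelihood F tests, two-sided, in 1 model of group means over all 12 libraries, which share 1 estimate of spread (biological coefficient of variation 3.49%). P-values were adjusted by Benjamini-Hochberg over all tested genes, and genes under 0.05 were called. The contrasts were TnfSnxB against Tnf, TnfSnxB against SnxB, Tnf against Ctrl, SnxB against Ctrl, and the interaction. TnfSnxB against Tnf and SnxB against Ctrl share no libraries, while comparisons that share a group are not independent. Standard errors are the absolute log2 fold change divided by the square root of F, with 95% intervals from the t distribution at the model's degrees of freedom. No set test was run. Levels are CPM on TMM library sizes. Exon lengths, GC content and gene positions came from GENCODE 29 (GRCh38), matched by symbol for 13419 tested genes (90.5%). The GC and length correction used offsets per library from a loess fit (span 0.3).

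All 36 members are counted, though not all are named. Members called by the main test in a comparison are named there, some with only a shared range or no value. Of each of the 2 wider lists at most the 5 genes with the smallest p over the pairwise contrasts are named. The members, lists and alternatives were chosen with earlier results of these data known. The alternatives were median-of-ratios size factors (RLE), DESeq2 1.42.0, all genes kept whatever their counts, a fit on the compared groups alone, a block for the replicate number, the GC and length correction with and without that block, leaving out TnfSnxB libraries 2 and 3, and leaving out each library. The recovery of known changes by the test was checked on simulated counts with 1 spread for all genes and libraries. The TnfSnxB libraries were not alike in that way, so this check does not represent the contrasts that use them. Replicates are biological triplicates per the labels. No library was left out of the main values.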

Additional observations from a re-analysis of the deposited data

Results flagged for a closer look

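By the test with all libraries, the effect of TNFα differed with Senexin B for LDHA, by 0.19 on the log2 scale, for BNIP3, by 0.42, and for P4HA1, by 0.37, each by the interaction term of edgeR's quasi-likelihood test (adjusted p = 0.0324, 0.0298 and 0.0363). For LDHA the TNFα effect was 0.09 with Senexin B and -0.10 without it, for BNIP3 0.14 and -0.27, and for P4HA1 0.21 and -0.16. All 3 TnfSnxB libraries lay above all 3 SnxB libraries for LDHA and P4HA1. GC content of the longest transcript is 44.0% for LDHA, 51.4% for BNIP3 and 40.8% for P4HA1, and the interaction and GC content had a Spearman correlation of -0.680 over all genes. The part of that trend in the LDHA and P4HA1 values was not tested beyond the correction, which left 0.12 and 0.25 (adjusted p = 0.238 and 0.161), and 0.49 for BNIP3. Each of the 3 calls ended in 10 of the 12 fits that left out 1 library, and with TnfSnxB library 1 alone those of BNIP3 and P4HA1 ended (adjusted p = 0.0632 and 0.255).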

How the results depend on the processing

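Every DDIT4, HK2 and NDRG1 call in a comparison of Senexin B with its counterpart without it held under all 20 alternatives, and so did DDIT4 in Tnf against Ctrl and BNIP3 in TnfSnxB against Tnf. Counts of calls moved more, given here as genes and, in brackets, members. In Tnf against Ctrl they were 300 (2), and 776 (9) with only the groups compared, 566 (5) after the GC and length correction, 559 (6) with the replicate block and that correction, 858 (9) without TnfSnxB libraries 2 and 3, and 177 to 874 (1 to 9) leaving out 1 library. In SnxB against Ctrl they were 301 (5), and in the same order 742 (9), 643 (9), 665 (9), 864 (12) and 172 to 879 (3 to 12). In TnfSnxB against Tnf they were 4029 (19), and 2442 (14), 1722 (7), 1741 (8), 403 (4) and 1869 to 6769 (10 to 21). In TnfSnxB against SnxB they were 2106 (7), and 504 (1), 727 (3), 780 (4), 219 (0) and 512 to 5391 (1 to 20). For the interaction, which uses all groups, they were 370 (3), and 711 (4) with no low-count filter, 736 (5) with the replicate block, 44 (1), 70 (1), 19 (2) and 3 to 4534 (0 to 18). The highest of each leave-one-out range came without TnfSnxB library 1, where libraries 2 and 3 were the whole group. The causes were not tested. Log2 fold changes of called members that reversed were, in TnfSnxB against Tnf, PFKL 0.040, TPI1 0.0079 and HIF1A -0.054 after the correction, 0.040, 0.0066 and -0.060 with block and correction, and GPI 0.0086, TPI1 0.0031, ENO1 0.00013 and PKM 0.0019 without libraries 2 and 3. In TnfSnxB against SnxB PFKL was 0.013 after the correction and 0.012 with the block and correction, and GAPDH was 0.033 without libraries 2 and 3. Same-numbered libraries of different groups did not deviate together (18 pairs, correlations -0.0402 to 0.0941, 5 best with their own number), so the numbers were not taken as pairs. With the replicate block alone 291 (2), 306 (6), 4163 (19) and 2203 (10) were called in these pairwise comparisons. Size factors and DESeq2 moved no count by more than 1.5 times. Depth limits ANKRD37 (402 counts in the 12 libraries) and CA9 most.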
